A study of Mus musculus with 13 samples.

Results

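The 10 genes described here encode the cytosolic and mitochondrial heat shock proteins Hspa1a, Hspa1b, Hspa8, Hsph1, Hspb1, Dnajb1, Hsp90aa1, Hspd1, Hspe1 and Bag3. They were found by gene symbol among the 52550 genes of the count table, after the Ensembl identifiers were matched without their version. RNA-seq counts came from 13 libraries of mouse retinal cells that were papain-dissociated and sorted with an antibody against Thy1.2, a surface protein of retinal ganglion cells (RGCs), the neurons whose axons form the optic nerve. In the development dataset all mice were wild type (WT) and not injured, and the cells were taken on postnatal day (P) 1 (3 libraries), P14 (3 libraries) or P21 (2 libraries). In the knockout dataset all mice were adults with floxed Kdm6a, labelled P42, and all had an optic nerve crush 3 days before the cells were taken. Before the crush, AAV2-Cre had been injected into the eye for 2 of these libraries (genotype labelled UTX knockout) and AAV2-GFP for the other 3. Kdm6a, also called UTX, removes methyl groups from lysine 27 of histone H3. As a model the knockout is limited to cells that the virus entered, and the control carries the same floxed allele and the same injury. The methods place the crush at an older age than P42. How many animals went into a library is not given in the sources used here, so the p-values measure the spread between these libraries.

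Heat shock proteins are chaperones, which keep other proteins from aggregating and help them fold. HSP70 proteins grip unfolded stretches in a cycle driven by ATP. J proteins such as Dnajb1 load them, HSP110 proteins such as Hsph1 and the BAG domain of Bag3 release their ADP, and small heat shock proteins such as Hspb1 hold unfolded proteins without ATP. HSP90 proteins finish the folding of kinases and receptors, and in mitochondria Hspd1 (HSP60) forms the barrel and Hspe1 (HSP10) the lid of a folding chamber. Some of these genes are transcribed in all cells at rest, such as Hspa8. Others, such as Hspa1a and Hspa1b, are known for a low level at rest and a steep rise after heat or protein damage, when the factor Hsf1 binds heat shock elements in their promoters. Such an element is a run of inverted GAA units.

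Promoter sequences from RefSeq (GRCm38.p6), from 250 bases before to 50 bases after each annotated start, were found for 8 of the 10 genes, and Hspa8 and Hsp90aa1 had no entry. Matches before the start are shown, since a heat shock element is the feature for which this family is known. The sites are printed 5′ to 3′ on the strand of the gene, with the element in capitals.
Hspd1: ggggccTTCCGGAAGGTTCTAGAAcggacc
Hspe1: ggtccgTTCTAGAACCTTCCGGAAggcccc
Hspa1a: ctgctgGAAGATTCctggcc
Hspa1b: ctgctgGAAGATTCctggcc
Hspb1: acaagaGAAGTTTCcagatg
Hspb1, next site: ggggcaGAACCTTCctggcc
Hsph1: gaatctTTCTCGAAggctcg

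The Hspd1 and Hspe1 lines are the same site read from its opposite strands, at chr1:55088053-55088082. These genes lie head to head, with Hspd1 on the minus strand at chr1:55077835-55088243 and Hspe1 on the plus strand at chr1:55088132-55091307, and their annotated 5′ ends overlap. Whether the reads were counted by strand is not given in the sources used here, so reads from that overlap are uncertain for both genes. This element lies in an exon (UTR) of an Hspd1 transcript in GENCODE M21. The Hspa1a site is at chr17:34972247-34972266 and the Hspa1b site at chr17:34959329-34959348, both on the minus strand and outside annotated genes. Their promoters matched at 247 of the 250 positions before the start (98.8%). Hspb1 had its sites at chr5:135887796-135887815 and chr5:135887816-135887835 on the plus strand, outside annotated genes, and Hsph1 at chr5:149636356-149636375 on the minus strand, in an Hsph1 exon (UTR).

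Searches used GAANNTTCNNGAA or TTCNNGAANNTTC for an element of 3 units, and GAANNTTC or TTCNNGAA for one of 2 units. Each pair of strings holds the reverse complement of its members, so both strands were covered, and a shorter match can lie inside a longer one. The longer element was in 0.603% of 32851 promoter windows (198 windows) and the shorter in 15.1% (4946 windows). Among the heat shock genes the longer element was found for Hspd1, Hspe1 and, after the annotated start, Hsph1. Bag3 had 1 shorter match after its start, and these letters were not in the windows of Dnajb1, a J protein gene at chr8:83608193-83612653.

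Gene positions are those of GENCODE M21 on GRCm38, and all 10 genes are annotated as protein coding. Levels are given as CPM, read counts over a library size that was scaled across all 13 libraries with TMM factors (trimmed mean of M values). Total counts ran from 13637602 to 16070720 in the knockout libraries and from 30357454 to 38812917 in the development libraries. Against the cell type in the labels, RGC markers were low in all groups but P1. The 11 marker genes summed to 8024 to 8905 CPM at P1, 1147 to 1290 at P14, 348 to 673 at P21, 299.7 to 349 with AAV2-GFP and 288 to 335 with AAV2-Cre, where the RGC factor gene Pou4f2 was at 0. Rod photoreceptor markers summed to between 12824 and 32168 CPM in the injured adults and to at most 1161 CPM in development. Kdm6a lay at 109 ± 2.10 CPM with AAV2-Cre (SD, n = 2) and 108 ± 10.7 with AAV2-GFP (SD, n = 3), a log2 fold change of -0.02 (edgeR, adjusted p = 0.963). A count over the whole gene does not check the loss of its floxed exon. In bulk samples such as these, fewer cells of a type and less RNA per cell cannot be told apart.

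Per length, Hspa8 and Hsp90aa1 stood highest among the 10 genes in every group. In CPM per kb of exon, Hspa8, the constitutive HSP70 of the cytosol (chr9:40800984-40810087), had mean levels of 262 at P1, 201 at P14 and 147 at P21. Hsp90aa1, an HSP90 that stress can raise (chr12:110690605-110702728), came next at 195, 129 and 133 CPM per kb. Hspd1 followed at 59.2, 42.04 and 38.2 CPM per kb. With AAV2-GFP the order at the top was Hsp90aa1 (366 CPM per kb), Hspa8 (183) and Hspd1 (142), and with AAV2-Cre the same genes stood at 336, 258 and 173. Lower in the order, Hspa1a and Bag3 overlapped between libraries at P1 (means 2.06 and 1.82 CPM per kb). At P14 the neighbours Dnajb1 and Hspe1, Hsph1 and Hspb1, and Hspa1b and Bag3 overlapped, at means of 25.9 each, 23.7 and 21.8, and 13.6 each. No neighbours overlapped at P21, where Hspa1a was last at 2.10 CPM per kb. With AAV2-GFP, Hsph1 overlapped with Hspa1a, Hspa1a with Hspe1, and Hspb1 with Bag3. At P1, P14 and P21 the lowest level belonged to Bag3, Hspa1a and Hspa1a in turn, and in both injured groups to Hspa1b.

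**Figure D1:**
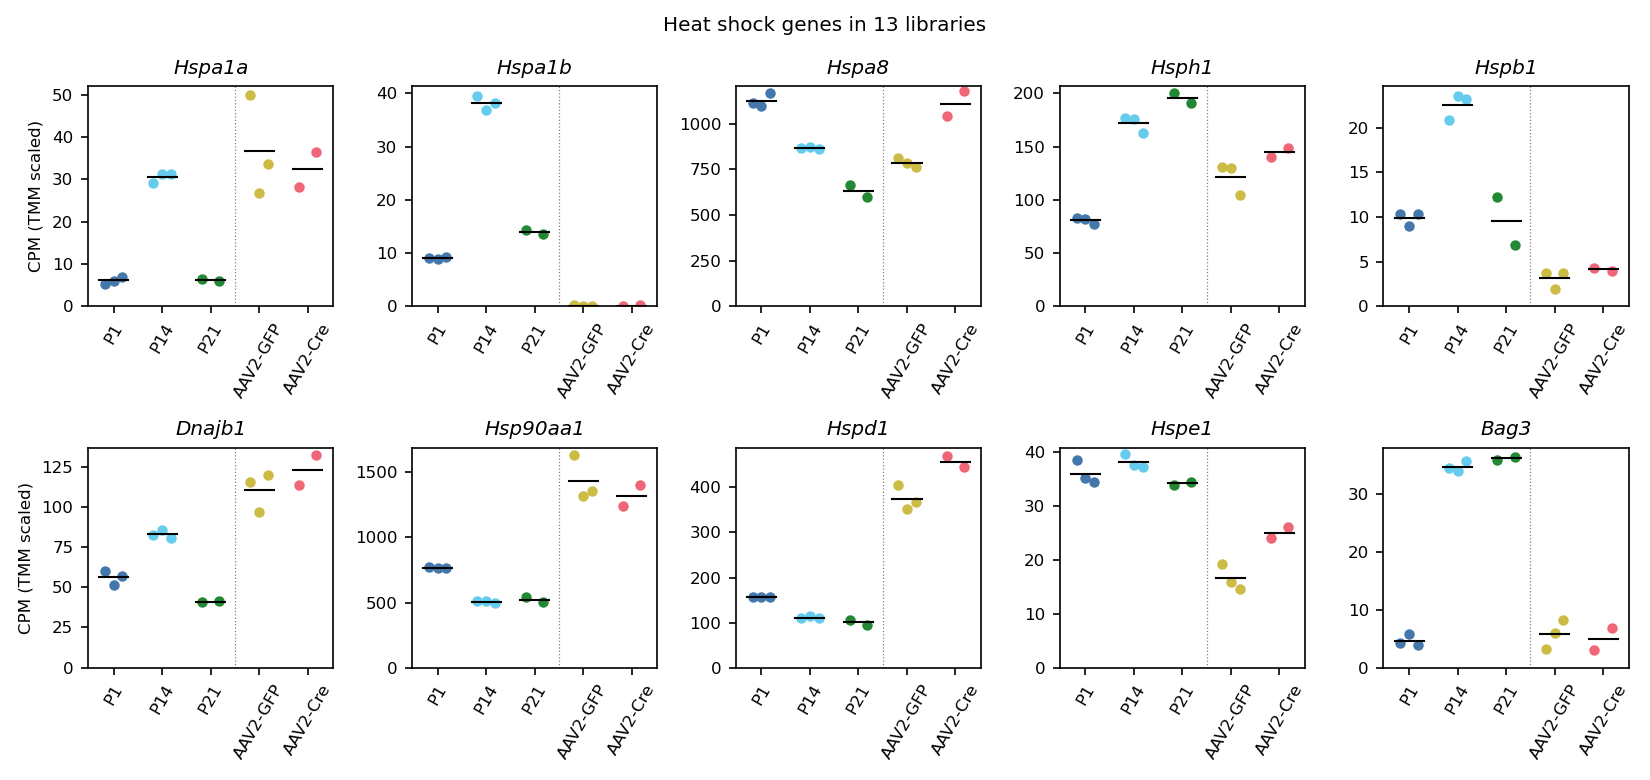
Level of each of the 10 heat shock genes in each of the 13 libraries, in CPM on linear axes that start at 0, with 1 point per library, a line at the mean of each group and the groups along the horizontal axis. Hspa1a peaks at P14 (29.0 to 31.3 CPM) among the ages, Bag3 lies at 35.9 and 36.4 CPM at P21, and Hspa1b is at or near 0 in all 5 injured libraries.

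From P1 to P14, 6 of the 10 genes rose, the stress-inducible HSP70 pair among them, while the 3 genes highest per length fell. Hspa1a, Hspa1b, Hsph1, Hspb1, Dnajb1 and Bag3 were higher at P14, Hspa8, Hsp90aa1 and Hspd1 were lower, and Hspe1 was not called (edgeR's quasi-likelihood test, Benjamini-Hochberg adjusted p under 0.05). That is 6 higher and 3 lower of 10, beside 33.6% higher and 33.6% lower of all 20890 genes tested, 67.1% in all. With a log2 fold change beyond 1 asked for as well, 5 were called, beside 35% of all genes. The median log2 fold change was 0.80 over the 10 genes and -0.01 over all genes.

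The largest rise was that of Bag3, the co-chaperone that links HSP70 to small heat shock proteins and to autophagy (chr7:128523616-128546981). It lay at 4.24, 5.82 and 3.92 CPM in the P1 libraries and at 34.4, 34.0 and 35.7 CPM at P14. Every P14 library was above every P1 library, and the log2 fold change was 2.87 (SE 0.13, edgeR, adjusted p = 4.74e-08), a fitted ratio of 7.30.

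Hspa1a and Hspa1b encode the stress-inducible HSP70 of the cytosol from 2 neighbouring genes on chromosome 17 (chr17:34969190-34972156 and chr17:34956436-34959238, both on the minus strand). Hspa1a stood at 5.34, 6.01 and 7.004 CPM at P1 and at 29.0, 31.2 and 31.3 CPM at P14. Hspa1b stood at 9.05, 8.89 and 9.24 CPM at P1 and at 39.4, 36.8 and 38.2 CPM at P14. Neither gene overlapped between the ages. Hspa1a rose by 2.28 on the log2 scale (SE 0.11, edgeR, adjusted p = 5.58e-08) and Hspa1b by 2.04 (SE 0.07, adjusted p = 1.18e-08).

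Hspb1, the small heat shock protein HSP27 (chr5:135887919-135889563), was at 10.3, 8.95 and 10.4 CPM at P1 and at 20.8, 23.6 and 23.2 CPM at P14. Hsph1, an HSP110 (chr5:149614287-149636376), went from 82.5, 82.4 and 77.4 CPM to 177, 176 and 163 CPM. Both were thus higher in every P14 library than in any P1 library, with log2 fold changes of 1.16 (SE 0.17, edgeR, adjusted p = 0.000190) and 1.06 (SE 0.05, adjusted p = 1.04e-07). Dnajb1, the main J protein partner of the inducible HSP70, moved less, from 60.2, 51.1 and 57.1 CPM to 82.7, 85.7 and 80.7 CPM (log2 fold change 0.53, SE 0.07, edgeR, adjusted p = 4.74e-05).

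The 3 genes that fell were the highest of the 10 per length at P1. Hsp90aa1 read 770.5, 763 and 763 CPM at P1 and 513, 509.6 and 499 CPM at P14, and fell by 0.63 on the log2 scale (SE 0.04, edgeR, adjusted p = 4.30e-07). Hspd1 read 157, 156 and 156 CPM and then 109, 115 and 109 CPM, and fell by 0.52 (SE 0.05, adjusted p = 5.43e-06). Hspa8 read 1114, 1096 and 1167 CPM and then 866, 869.5 and 862 CPM, and fell by 0.41 (SE 0.04, adjusted p = 1.37e-05). In none of these genes did the ages overlap.

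Hspe1, the mitochondrial lid, was not called. Its libraries read 38.5, 35.1 and 34.3 CPM at P1 and 39.6, 37.6 and 37.2 CPM at P14, which overlap, for a log2 fold change of 0.05 (SE 0.07, edgeR, adjusted p = 0.509). Without scaling beyond library size, which moves the median of all genes to 0.11, the change of Hspe1 was 0.18 (edgeR, adjusted p = 0.0307). The difference between the changes of Hspd1 and Hspe1 was not tested.

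**Figure D2:**
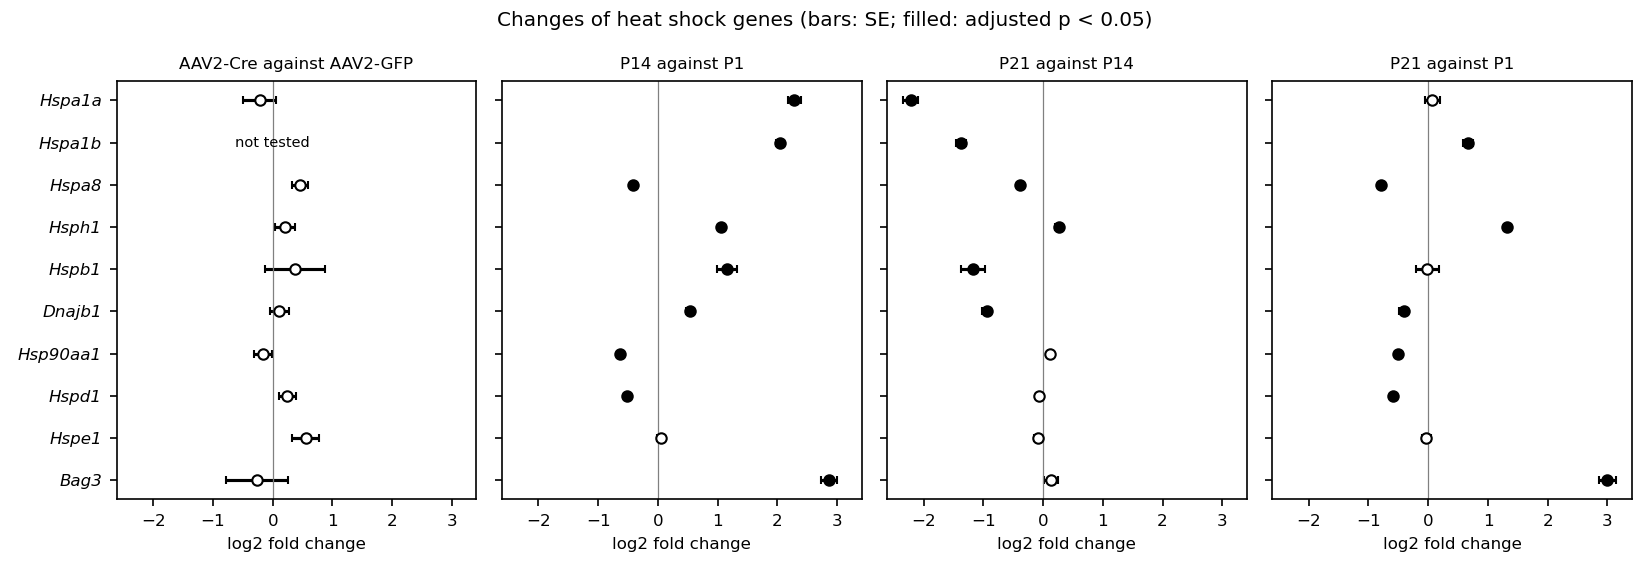
Log2 fold change of each heat shock gene in AAV2-Cre against AAV2-GFP, P14 against P1, P21 against P14 and P21 against P1, with a panel for each comparison, bars for the standard error and filled points for adjusted p under 0.05 (edgeR). 6 filled points lie to the right of 0 and 3 to the left for P14 against P1, and none is filled for AAV2-Cre against AAV2-GFP.

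From P14 to P21, 5 of the 10 genes fell, 1 rose and 4 were not called, beside 19.3% lower and 14.6% higher of all 20890 genes (edgeR, adjusted p under 0.05). Over all genes that was 4024 lower and 3047 higher, and 4722 and 2326 without scaling beyond library size. In either direction 33.8% of all genes were called, and 11.9% with a log2 fold change beyond 1, which Hspa1a, Hspa1b and Hspb1 met. The median log2 fold change was -0.23 over the 10 genes and -0.00 over all. Hspa1a, Hspa1b, Hspb1 and Dnajb1, which had risen, fell, while Bag3 was not called and Hsph1 rose further. P14 libraries enter both comparisons, so that the fall after P14 and the rise before it share those values.

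Hspa1a lay at 6.45 and 5.998 CPM at P21, below every P14 library and inside the range of P1. It fell by 2.22 on the log2 scale from P14 (SE 0.12, edgeR, adjusted p = 6.30e-06). Hspa1b lay at 14.3 and 13.7 CPM at P21, below every P14 library and above every P1 library, and fell by 1.37 (SE 0.08, adjusted p = 6.58e-06). Dnajb1 lay at 40.6 and 41.3 CPM, below every library of both earlier ages, and fell by 0.95 (SE 0.07, adjusted p = 2.67e-05).

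Hspb1 differed between the P21 libraries, at 12.2 and 6.80 CPM, a pair that lies on either side of the P1 range. It fell by 1.17 on the log2 scale from P14 (SE 0.20, edgeR, adjusted p = 0.00162). Hspa8 went on falling, to 662 and 599.8 CPM at P21 (log2 fold change -0.38, SE 0.05, adjusted p = 0.000298). Neither gene overlapped with P14.

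The rise of Hsph1 was small. Its P21 libraries read 201 and 191 CPM, above every P14 library, with a log2 fold change of 0.26 (SE 0.06, edgeR, adjusted p = 0.00805). When all 13 libraries were in 1 fit it was 0.21 (adjusted p = 0.287). Bag3 read 35.9 and 36.4 CPM at P21, a little above every P14 library, and was not called (0.13, adjusted p = 0.448).

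The other genes not called were Hsp90aa1, with 540.1 and 506 CPM (log2 fold change 0.12, edgeR, adjusted p = 0.0651), Hspd1, with 106 and 95.7 CPM (-0.06, adjusted p = 0.400), and Hspe1, with 33.9 and 34.5 CPM (-0.08, adjusted p = 0.428). Under limma-voom the Hsp90aa1 value of 0.12 was called (adjusted p = 0.0161).

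Over the whole span from P1 to P21, 3 genes were higher, 4 lower and 3 not called, beside 34.1% higher and 33.6% lower of all genes tested, 67.6% in all (edgeR, adjusted p under 0.05). Bag3 and Hsph1 also had a log2 fold change beyond 1, which with the call was met by 38.2% of all genes. Bag3 was higher by 3.00 on the log2 scale (SE 0.14, adjusted p = 6.70e-08), Hsph1 by 1.32 (SE 0.06, adjusted p = 6.16e-08) and Hspa1b by 0.67 (SE 0.08, adjusted p = 3.49e-05). When all 13 libraries were in 1 fit, the Hspa1b value was 0.64 (adjusted p = 0.0518). Hspa8 had a log2 fold change of -0.79 (SE 0.05, edgeR, adjusted p = 3.44e-07). Hspd1 had -0.59 (adjusted p = 5.78e-06), Hsp90aa1 -0.51 (adjusted p = 4.48e-06) and Dnajb1 -0.41 (adjusted p = 0.000705).

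Hspa1a (0.07, edgeR, adjusted p = 0.652), Hspb1 (-0.01, adjusted p = 0.954) and Hspe1 (-0.03, adjusted p = 0.736) were not called between P1 and P21. Hspb1 depended on 1 library. Without P21 replicate 1 its log2 fold change was -0.52 (edgeR, adjusted p = 0.0125), and without P21 replicate 2 it was 0.32 (adjusted p = 0.0605).

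Across the 8 development libraries the profiles of Hsp90aa1 and Hspd1 were the most alike of all pairs among the 10 genes, with a root mean square difference of 0.0763 on the log2 scale after centring. Hspa8 and Hspd1 followed at 0.128, and Hspa8 and Hsp90aa1 at 0.197. The mitochondrial partners Hspd1 and Hspe1 stood at 0.285, and the neighbours Hspa1a and Hspa1b at 0.343.

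Markers of other cells moved over the same ages as the inducible heat shock genes. A list of 10 pericyte and smooth muscle markers, genes of the cells that wrap vessels, summed to between 122 and 398 CPM at P1, 4439 and 4969 CPM at P14 and 636 and 979 CPM at P21. All 10 were higher at P14 than at P1 and all 10 lower at P21 than at P14 (edgeR, adjusted p under 0.05). Microglia and macrophage markers did the same in 10 of 10 genes, with sums of 30.2 to 46.3, 365 to 380 and 96.9 to 113 CPM. Müller glia markers summed to 2379 to 6332 CPM at P1, 21810 to 23089 at P14 and 40401 to 41581 at P21, and 11 of 11 and then 6 of 11 of them were higher. Endothelial markers summed to 146 to 281, 1393 to 1491 and 1686 to 1740 CPM, but by gene 9 of 9 were higher at P14 than at P1 and 7 of 9 lower at P21 than at P14, with a median log2 fold change of -1.84. Rod markers summed to 114 to 129, 988 to 1161 and 506 to 529.7 CPM, with 11 of 11 higher and then 9 of 11 lower. Of 6 amacrine cell markers 5 were higher and then 5 lower, and of 6 bipolar cell markers 6 were higher and then 3 lower. Their part in the changes of the heat shock genes was not tested.

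The immediate early genes, which cells transcribe within minutes of a stimulus, also rose by P14 and fell by P21. By P14, 21 of 22 listed genes had risen from P1 and 1 had fallen (median log2 fold change 2.58), and 20 were lower at P21 than at P14 (median -0.95, edgeR, adjusted p under 0.05). Of all genes, 33.6% were higher at P14 than at P1 and 19.3% lower at P21 than at P14. Fos, a part of the AP-1 factor, had mean levels of 282, 1706 and 873 CPM at P1, P14 and P21. Atf3, a stress-induced transcription factor gene, had 1.70, 22.9 and 1.41 CPM. Jun rose by 2.38 and Egr1 by 2.41 on the log2 scale from P1 to P14. From P14 to P21 their log2 fold changes were -1.01 and -0.99. Summed over the list, the levels were 1204 to 1363 CPM at P1, 6923 to 6963 at P14 and 3286 to 3352 at P21. Whether the heat shock genes moved with these genes for a shared reason was not tested.

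In the injured adults none of the 9 heat shock genes tested was called between AAV2-Cre and AAV2-GFP by edgeR, beside 1.33% higher and 0.294% lower of the 18395 genes tested, 1.62% in all and 1.34% with a log2 fold change beyond 1. At an unadjusted p under 0.05 there were 2, Hspa8 and Hspe1. DESeq2 called 1, Hspa8, beside 798 higher and 528 lower of 18395 genes, and limma-voom called 0. A fit of all 13 libraries tested 10 of the heat shock genes. It called 2, Hspa8 and Hspe1, beside 1433 higher and 1071 lower of 23844 genes. The median log2 fold change was 0.21 over the 9 genes and -0.03 over all genes tested. In the fit of the injured adults alone, Hspa1b was below the filter on low counts.

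Hspa8 lay at 1040.5 and 1177 CPM in the AAV2-Cre libraries and at 811, 785 and 765 CPM in the AAV2-GFP libraries, without overlap. Its log2 fold change was 0.45 (SE 0.14, unadjusted p = 0.00899, edgeR, adjusted p = 0.143), 0.46 with DESeq2 (adjusted p = 0.0101) and 0.49 with all 13 libraries in 1 fit (edgeR, adjusted p = 0.00378). Hspe1 lay at 24.0 and 26.1 CPM with AAV2-Cre and at 19.3, 15.9 and 14.7 CPM with AAV2-GFP, also without overlap (0.55, SE 0.23, unadjusted p = 0.0392, edgeR, adjusted p = 0.271). With all 13 libraries in 1 fit this was 0.59 (edgeR, adjusted p = 0.0175).

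Hspd1 read 469.8 and 445 CPM with AAV2-Cre and 405, 352 and 368 CPM with AAV2-GFP (log2 fold change 0.25, SE 0.14, edgeR, adjusted p = 0.432). Hsph1 read 140.3 and 149 CPM against 131, 130.3 and 104 CPM (0.21, SE 0.16, adjusted p = 0.586). Hspb1, a low gene here, read 4.33 and 3.98 CPM against 3.74, 1.87 and 3.74 CPM (0.38, SE 0.50, adjusted p = 0.780). In these genes, as in Hspa8 and Hspe1, both AAV2-Cre libraries were above every AAV2-GFP library. That makes 5 of 9 genes, beside 19.8% of all genes tested, and none of the 9 lay below in both, beside 15.7%. For Hspb1 the order depended on the scaling. AAV2-Cre replicate 2 and AAV2-GFP replicate 3 both had 63 counts of it, at total counts of 16070720 and 15765573.

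The other genes overlapped between the injured groups. Hspa1a read 28.2 and 36.5 CPM with AAV2-Cre and 49.8, 26.6 and 33.5 CPM with AAV2-GFP (log2 fold change -0.22, SE 0.28, edgeR, adjusted p = 0.767), and 0.06 without AAV2-GFP replicate 1. Dnajb1 read 114 and 132 CPM against 115, 96.8 and 119.8 CPM (0.11, SE 0.16, adjusted p = 0.797). Hsp90aa1 read 1244 and 1400.5 CPM against 1635, 1321 and 1355 CPM (-0.16, SE 0.15, adjusted p = 0.673). Bag3 read 3.12 and 6.83 CPM against 3.19, 5.90 and 8.19 CPM (-0.26, SE 0.52, adjusted p = 0.866), and its direction turned to 0.23 without AAV2-Cre replicate 1. The standard errors of the 9 genes, from 0.14 to 0.52 on the log2 scale, limit what these 5 libraries can show. edgeR put the biological coefficient of variation at 0.340 for the injured adults and at 0.109 for development.

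Marker lists of several cell types did not overlap in sum between the same libraries. B cell markers summed to 14966 and 18231 CPM in the AAV2-Cre libraries and to 2819 to 9229 CPM with AAV2-GFP, and 2 of 7 were called higher. Those of T and NK cells summed to 572 and 889 CPM against 251 to 441 CPM, with 0 of 10 called by edgeR. Microglia and macrophage markers overlapped, at 7939 and 10386 CPM against 5819 to 8845 CPM, as did rod markers, at 12824 and 28260 CPM against 26840 to 32168 CPM. Amacrine cell markers lay higher with AAV2-Cre, at 318.6 and 319.1 CPM against 215 to 242 CPM (1 of 6 called higher), and bipolar cell markers lower, at 840.4 and 962 CPM against 1049 to 1352 CPM (1 of 6 called lower). Their part in the values of Hspa8 and Hspe1 was not tested.

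**Figure D3:**
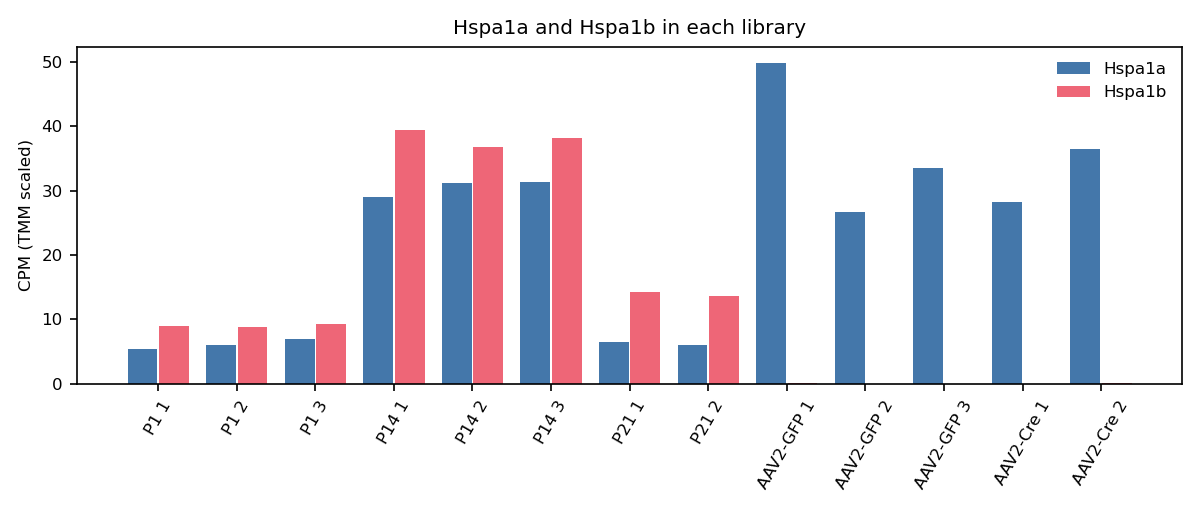
Level of Hspa1a and Hspa1b in CPM, with a pair of bars for each of the 13 libraries, ordered by group along the horizontal axis. Both genes are well above 0 in the 8 development libraries, while in the 5 injured libraries Hspa1a lies between 26.6 and 49.8 CPM and Hspa1b at or near 0.

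Hspa1b was listed at or near 0 in every injured library. Its counts were 0 and 2 with AAV2-Cre and 2, 0 and 0 with AAV2-GFP, where Hspa1a had 398 and 577, and 718, 442 and 565. In development Hspa1b held 56.9% to 62.9% of the counts of the pair at P1, 54.1% to 57.6% at P14 and 68.9% to 69.5% at P21. Their transcripts share sequence. Of the windows of 150 bases, the read length, 38.1% of those in Hspa1a and 40.5% of those in Hspa1b were in both, so that the split of reads between these genes is uncertain.

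Summed, the pair stood at 14.4, 14.9 and 16.2 CPM at P1, 68.4, 68.0 and 69.4 CPM at P14 and 20.8 and 19.7 CPM at P21. In the injured adults the sum was 28.2 and 36.6 CPM with AAV2-Cre and 49.9, 26.6 and 33.5 CPM with AAV2-GFP, below every P14 library and above every P1 and P21 library. The sum does not depend on how reads were split within the pair, but it does depend on how reads that fit both genes were treated, and whether that was alike in both datasets was not tested. The sum was higher at P21 than at P1, by 0.46 on the log2 scale (edgeR, adjusted p = 0.000240), where Hspa1a alone was not called.

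Other genes shared the pattern of Hspa1b. Of 11168 genes with a mean of at least 10 CPM in development, 42 (0.376%) had at most 3 counts in each injured library. The converse was found for 93 of 10481 genes (0.887%). The genes whose profile over the 13 libraries was most like that of Hspa1b were Efnb2 (root mean square difference 0.46 on the log2 scale), Crhbp (0.63), Rps15 (0.69), Nrbp2 (0.76) and Gm9794 (0.77). Rps15, a ribosomal protein gene, had mean levels of 201, 295 and 227 CPM at P1, P14 and P21. It had 1.90 CPM with AAV2-GFP and 3.96 CPM with AAV2-Cre, which is low but above 3 counts, so it is not among the 42. The near 0 of Hspa1b in the injured adults is given as a listed value, and its cause was not tested.

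Set beside development with no test, the injured adults stood above all 8 development libraries for 3 genes and below them for 3. Over the 16557 genes that passed the filter in both datasets, which leave out Hspa1b, the shares were 24.1% and 27.8%. Above were Hspd1 (352 to 469.8 CPM against 95.7 to 157), Hsp90aa1 (1244 to 1635 CPM against 499 to 770.5) and Dnajb1 (96.8 to 132 CPM against 40.6 to 85.7). Below were Hspb1 (1.87 to 4.33 CPM against 6.80 to 23.6), Hspe1 (14.7 to 26.1 CPM against 33.9 to 39.6) and Hspa1b. Hspa1a, Hspa8, Hsph1 and Bag3 overlapped. The mitochondrial partners Hspd1 and Hspe1 thus lay on opposite sides, and so did subunits of the CCT chaperonin, a folding ring. Among those, Cct3 and Cct8 lay below all development libraries, Cct4 and Cct6a above them, and the others overlapped. Cct4 lay above only narrowly, at 168.4 CPM in its lowest injured library and 168.0 CPM in its highest development library. Dataset, age, injury, genotype and virus injection differ together between these libraries, as do rod marker levels, and their parts cannot be told apart. The profiles nearest to that of Hspd1 over the 13 libraries were those of Rrn3 (root mean square difference 0.08 on the log2 scale), Rtcb (0.09), Psmd14 (0.10), Fam32a (0.11) and Abi1 (0.11).

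A list of 59 other cytosolic and mitochondrial chaperones, co-chaperones and regulators was read in the same fits. From P1 to P14, 11 were higher, 34 lower and 14 not called (edgeR, adjusted p under 0.05), with a median log2 fold change of -0.19, beside 33.6% higher and 33.6% lower of all genes. Without scaling beyond library size the split was 17 higher and 25 lower. From P14 to P21, 7 were higher and 12 lower (median -0.01), which is near the 14.6% and 19.3% of all genes, and unscaled 3 and 21. From P1 to P21, 12 were higher and 32 lower (median -0.22), beside 34.1% and 33.6% of all genes, and unscaled 16 and 27.

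The CCT chaperonin, the ring that folds actin and tubulin, was lower at P14 than at P1 in 8 of 8 subunit genes (median log2 fold change -0.74) and lower at P21 than at P1 in 8 of 8 (edgeR, adjusted p under 0.05). In each of these comparisons 33.6% of all genes were lower. Cct6a had the largest fall, with log2 fold changes of -1.11 and -1.20. Co-chaperones of HSP70 and HSP90 were lower at P14 in 12 of 17 genes and higher in none, beside 33.6% lower and 33.6% higher of all genes. Among them Hspbp1, a nucleotide exchange factor, had -1.13 and Bag2, an inhibitor of the ubiquitin ligase Chip, -0.94.

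Small heat shock proteins other than Hspb1 were higher at P14 than at P1 in 5 of 6 genes (median log2 fold change 2.17) and lower at P21 than at P14 in 3 of 6. Over all genes these shares were 33.6% and 19.3%. Hspb2, Hspb3 and Hspb7 were low genes, with means of 0.26, 0.30 and 0.50 CPM at P1. At P14 their means were 4.81, 0.46 and 2.58 CPM. Cryab, the lens and glial crystallin αB, had mean levels of 20.6, 181 and 178 CPM at the 3 ages and rose by 3.10 on the log2 scale from P1 to P14 (edgeR, adjusted p = 3.42e-07). Hspb6 rose by 1.72. Hspa2, an HSP70 known from the testis, rose by 1.25 and then had a log2 fold change of -1.15 from P14 to P21.

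Hsp90ab1, the constitutive HSP90, fell from P1 to P14 and again from P14 to P21, as Hspa8 did, at means of 1703, 1305 and 966 CPM at P1, P14 and P21 (log2 fold changes -0.42 from P1 to P14 and -0.36 from P14 to P21, edgeR, adjusted p = 2.17e-05 and 0.000676). In the injured adults it stood at 307 CPM with AAV2-GFP and 441 CPM with AAV2-Cre (0.48, adjusted p = 0.136, and 0.49 with DESeq2, adjusted p = 0.0138). The mitochondrial HSP70 gene Hspa9 had -0.14 at P14 against P1 (edgeR, adjusted p = 0.0235). The mitochondrial HSP90 gene Trap1 had 0.07 (adjusted p = 0.291). Of the HSP110 genes, Hspa4 had -0.16 at P14 (adjusted p = 0.0255), and Hspa4l rose from P14 to P21 by 0.41 (adjusted p = 0.00151).

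Hsf1, the factor that switches on heat shock genes, rose by 0.31 on the log2 scale from P1 to P14 (edgeR, adjusted p = 0.000495). Hsf2, its relative, had a log2 fold change of -0.57 (adjusted p = 8.68e-06). From P14 to P21 neither was called (0.03 and 0.05, adjusted p = 0.693 and 0.612). Over that week 4 of 5 mitochondrial co-chaperones and proteases were higher, beside 14.6% of all genes. Among them was Clpx (0.36, edgeR, adjusted p = 0.0326), the unfoldase of a matrix protease. Dnajb2, a J protein, rose by 0.35 (adjusted p = 0.00429). Of the 59 listed genes 7 were higher over that week, but 3 without scaling beyond library size. With all 13 libraries in 1 fit there were 0, so Hspa4l, Clpx and Dnajb2 were not called higher there. Among the 12 genes that fell from P14 to P21 were also Bag1 (-0.37), Hsbp1 (-0.33) and Hspa13 (-0.32), with adjusted p from 0.000503 to 0.0209 by edgeR.

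None of the 56 genes of this list that were tested was called between AAV2-Cre and AAV2-GFP by edgeR, beside 1.62% of all genes, where 5 had an unadjusted p under 0.05 and the median was 0.10. DESeq2 called 1, Hsp90ab1, beside 798 higher and 528 lower of 18395 genes. A fit of all 13 libraries tested 59 and called 7, beside 1433 higher and 1071 lower of 23844 genes. Hsf2 had -0.84 (edgeR, adjusted p = 0.236), and -0.84 with no filter on low counts (adjusted p = 0.0492). Hspa4l had -0.44 (adjusted p = 0.314).

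Chaperones of the endoplasmic reticulum belong to a different stress pathway. Of 14 listed genes 3 were higher with AAV2-Cre than with AAV2-GFP and none lower, with a median log2 fold change of 0.62, beside 1.33% higher of all genes tested. Hspa5, the HSP70 of that compartment, had means of 420 CPM with AAV2-GFP and 715 CPM with AAV2-Cre (0.73, edgeR, adjusted p = 0.0442). Sdf2l1 had 1.01 (adjusted p = 0.0442), Manf 1.04 (adjusted p = 0.0221) and Hsp90b1, the HSP90 of the compartment, 0.58 (adjusted p = 0.100). Without AAV2-Cre replicate 1 or 2 the calls over all genes fell from 298 to 8 and 5. Whether the endoplasmic and cytosolic chaperones differed in their change was not tested. Nor was the part in these values of the B cell markers, which also lay higher with AAV2-Cre. In development 12 of the 14 endoplasmic genes were higher at P14 than at P1, beside 33.6% of all genes. At P21, 6 were lower than at P14, beside 19.3%.

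**Figure D4:**
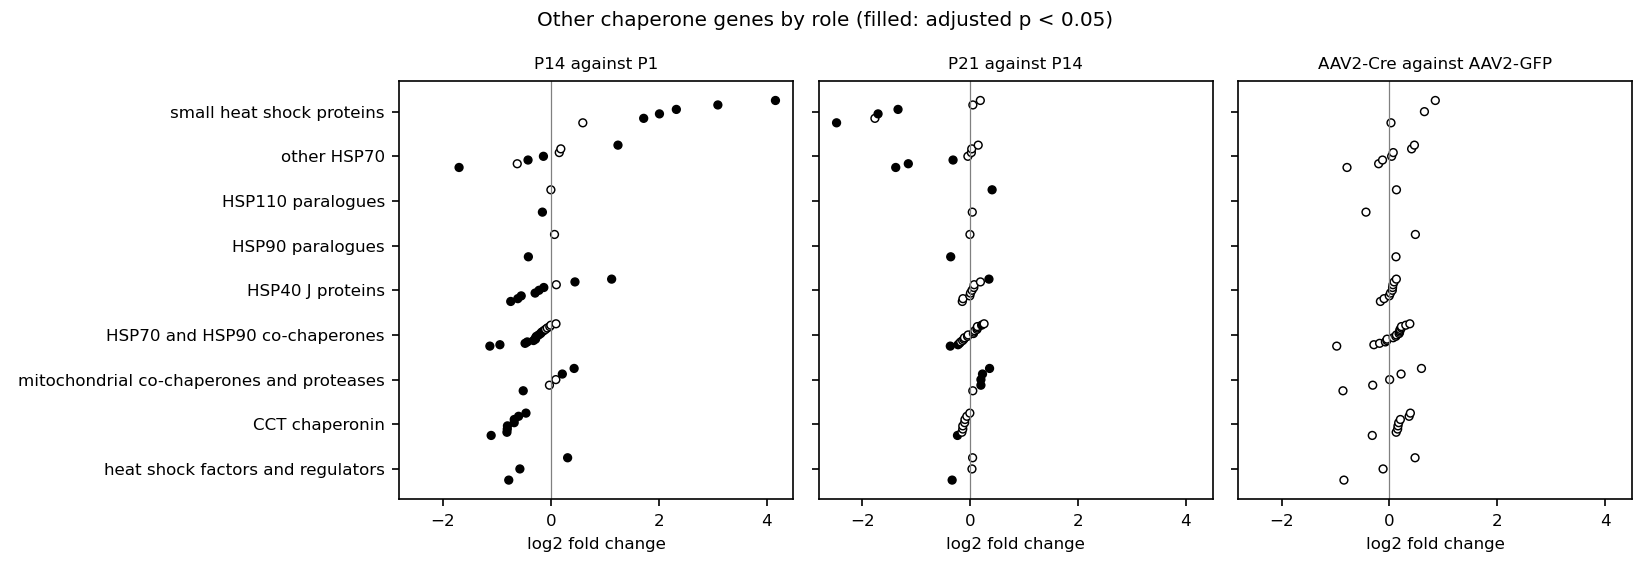
Log2 fold changes of the 59 other chaperone genes by role, with 1 point per gene, filled where adjusted p is under 0.05, in panels for P14 against P1, P21 against P14 and AAV2-Cre against AAV2-GFP (edgeR). The panel for AAV2-Cre against AAV2-GFP holds the 56 genes tested there. The 8 CCT subunits lie below 0 and most small heat shock proteins above 0 for P14 against P1.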

How the data were processed

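The deposited values were whole counts of reads per gene with no normalization. According to the methods and processing notes, the authors used FastQC 0.11.9 and Trimmomatic 0.39 on the reads of poly-A RNA libraries (150 bp, paired ends), then HISAT2 2.2.1 for alignment to GRCm38 and featureCounts of Subread 2.0.3 for counting. The annotation release and the strand setting are not given in the sources used here. Of 52550 genes in the table, 35338 had a count and 52403 were matched to a symbol. No column was left unused (0 columns).

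Each dataset (5 knockout and 8 development libraries) had its own fit in edgeR 4.0.16 with R 4.3.3 (TMM, filterByExpr, glmQLFit and glmQLFTest), with Benjamini-Hochberg adjustment over all genes tested and a threshold of 0.05. The P1, P14 and P21 libraries shared 1 fit. Levels per kb used the union of exons in GENCODE M21. Alternatives were DESeq2 1.42.0, limma-voom (limma 3.58.1), other scalings and filters, all 13 libraries in 1 fit, a replicate block, a log2 fold change beyond 1, Hspa1a and Hspa1b summed, and each library left out in turn. The fits were tested on simulated data.

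The 10 genes and all lists were chosen with earlier results of these data known. Besides the 10 genes, Hsp90ab1, Hspa9, Trap1, Hspa4, Hspa4l, Hsf1 and Hsf2 are named in any case, then up to 6 other chaperones per comparison with the largest change among those called whose mean log2 CPM reached 3, the 5 genes most alike in profile to Hspa1b and to Hspd1, and Fos, Jun, Egr1, Atf3, Hspa5, Hsp90b1 and Kdm6a. Sdf2l1, Manf and the marker Pou4f2 were singled out after their values were seen. Counts of other chaperones under the alternatives were added after the data were seen. Replicate pairs differed in counts by more than sampling noise.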

Additional observations from a re-analysis of the deposited data

How the results depend on the processing

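Of the recomputed log2 fold changes of the 10 genes, 612 kept their direction and their side of the threshold, 12 turned direction, 7 passed the threshold only under the alternative and 2 only in the reported fit. Between AAV2-Cre and AAV2-GFP the count of heat shock genes called went from 0 to 1 with DESeq2 and to 2 with all 13 libraries in 1 fit, and that of the 59 other chaperones from 0 to 1, to 7 and, with no filter on low counts, to 2. With a log2 fold change beyond 1 asked for, the 10 genes had 0 lower for P14 against P1 and for P21 against P1, and 0 higher and 3 lower for P21 against P14, while other chaperones called numbered 10, 9 and 5. With all 13 libraries in 1 fit, 0 of the 10 were higher for P21 against P14, and 5 other chaperones were called there and 27 for P21 against P1. With limma-voom 2 of the 10 were higher for P21 against P14. Leaving out 1 library, other chaperones called for P21 against P14 ran from 10 to 21, the lowest without P21 replicate 2. The cause of these changes was not tested.

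Turned directions were all of genes not called. For AAV2-Cre against AAV2-GFP, Bag3 turned with the replicate block (0.0505), and with 1 library left out Bag3 ran from -0.91 to 0.23 and Hspa1a from -0.39 to 0.0567. For P21 against P1, Hspb1 (0.0538) and Hspe1 (0.0365) turned without scaling. With 1 library left out, Hspa1a ran from -0.0264 to 0.17, Hspb1 from -0.52 to 0.32 and Hspe1 from -0.0705 to 0.0171.

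Libraries of the same replicate number showed little shared deviation (correlations of deviations from -0.0510 to 0.0215). In groups of 2 the deviations mirror each other, so this check cannot exclude a pairing by number. The replicate block changed no call of the 10 genes. Over all genes, AAV2-Cre against AAV2-GFP gave 244 higher and 54 lower, but 798 and 528 with DESeq2, 360 and 96 with limma-voom, 969 and 543 with no low-count filter, 378 and 152 with at least 10 counts in every library, 1433 and 1071 with all 13 libraries in 1 fit, 207 and 77 without scaling, and 232 and 23 with the replicate block. Leaving out 1 library gave 5 to 253 higher and 0 to 31 lower. An AAV2-Cre library left alone took its spread from AAV2-GFP. Depth and 2 or 3 libraries per group limit the low genes, such as Hspb1 and Bag3, in the injured adults.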
